A study of Mus musculus with 6 samples.

Results

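Mitochondria make few of their own proteins, and nearly all others are imported from the cytosol. Precursors pass the outer membrane through the translocase of the outer membrane (TOM), and translocases of the inner membrane (TIM) carry them on to the matrix or insert them in the inner membrane. The organelles also fuse and divide, by GTPases that join outer or inner membranes and by a GTPase recruited from the cytosol that constricts them. The soleus, a slow hindlimb muscle rich in mitochondria, depends on both processes. The genes described here were those whose symbol begins with Tomm or Timm and a number, together with 13 named genes of membrane fusion and fission, cristae and inner membrane quality control. They were chosen by name. Of the 23152 genes that the array measured through probe sets of exactly 1 gene symbol, 33 met this rule, with 377 probe sets between them and 2 to 25 per gene. The rule also names Phb, but its rows carried a second symbol and gave no value, as did those of Tomm5. Timm21, Timm10b and Timm29 were measured under other symbols (1700034H14Rik, Fxc1 and 1810026J23Rik). They did not meet the rule and are not counted among the members.

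RNA was measured in the soleus of male mice of 18 weeks that had been fasted for 14 h. The 3 knockout mice (MKO) were Ckmm-Cre; Gna13 flox/flox, in which Cre under the muscle creatine kinase promoter is meant to delete the gene of the G protein subunit Gα13. The 3 control mice (WT) were Gna13 flox/flox without Cre. This promoter is active in skeletal and heart muscle. Both groups carried the floxed alleles, and no mice with Cre alone were analysed here, so Cre and the loss of Gna13 cannot be told apart. Each mouse had 1 array, and the values are log2 intensities that the authors normalized by robust multi-array averaging (RMA), with a median row of 4.87 to 4.95 per array.

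Whole muscle holds other cells than fibres, and a bulk sample cannot separate fewer cells of a type from less RNA per cell. Markers of muscle fibres averaged 10.979 to 11.139 (log2) on the MKO arrays and 11.104 to 11.118 on the WT arrays. Relative to the WT mean, fibroblast markers stood at −0.516, 0.025 and −0.172 on MKO arrays 1, 2 and 3, against −0.174 to 0.120 in WT. Of these markers 7 of 8 had a negative difference (median −0.30), as did 12374 of all 23152 genes. Fast fibre markers stood at −0.903, −0.288 and 0.127 in MKO, against −0.115 to 0.109 in WT. Myh4, 1 of these 10 genes, weighed heavily on the means. It stood at 5.110, 7.942 and 11.513 in MKO and at 10.893, 9.478 and 11.723 in WT. By the median of the 10 genes, the MKO arrays stood at −0.223, 0.001 and 0.050, against −0.015 to 0.030 in WT. Macrophage markers, of which 7 of 8 had a negative difference, stood at −0.321, −0.117 and −0.133 in MKO, narrowly below all WT arrays (0.187, −0.074 and −0.113). By the median of these markers the groups overlapped, at −0.204, −0.043 and −0.215 in MKO and 0.193, −0.170 and −0.078 in WT. In 0 of the 8 were the groups apart. Single markers of other lists had the groups apart, as did 9.25% of all genes. The endothelial Cldn5 (−0.727, SE 0.149), the fibre gene Des (−0.229, SE 0.064) and the slow fibre gene Tpm3 (−0.306, SE 0.101) were lower in MKO. The smooth muscle gene Tagln was higher (0.096, SE 0.125). None had an adjusted p under 0.05 by limma. The part of these cells in the differences given here was not tested. As a check of the genotype, 1 of the 7 Gna13 probe sets, 17257825, was lower on every MKO array (3.432, 4.255 and 4.327) than on any WT array (5.482, 6.232 and 6.158), while 3 others were higher on every MKO array. In all, 5 of the 7 had a higher mean in MKO, and the mean over the gene's probe sets was 6.774 in MKO and 6.731 in WT (difference 0.04, SE 0.13). Which exons they read is not known from the files.

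The start regions of the members held sites of 2 factors known for nuclear genes of mitochondrial proteins, NRF1 and GABPA (NRF2), in a larger share than the start regions of all genes did, given here as a description with no test. RefSeq windows from 250 bases before to 50 bases after a start (build GRCm38.p6) were found for 31 of the 33 members. The NRF1 core (GCGC, any base, then TGCGC, on either strand) lay in 5 of 31 members, or 16.1%, against 5.19% of 27025 genes. The GABPA core (CCGGAAGT, either strand) lay in 7 of 31, or 22.6%, against 4.31% of genes. By window, of which a gene can have several, the shares were 13.2% of 38 against 4.6% of 32851 for NRF1 and 21.1% against 3.89% for GABPA. Median GC content was also higher, 59.0% in the members' windows and 52.7% in all windows. Of the other cores searched, that of the estrogen-related receptor (TCAAGGTCA) lay in 1 member, Timm8b, that of YY1 (AAGATGG followed by CGGC) in 1, Timm50, and that of CREB (TGACGTCA) in none, against 0.47%, 0.75% and 2.03% of genes. These are letter matches, not measured binding. The 4 stretches below show a match of each kind in 2 import genes with a positive difference (Tomm20, Timm23) and 2 fusion genes with a negative one (Opa1, Mfn1). Each is written 5′ to 3′ on the gene's strand, covers the 150 bases before the start, and has the match in capitals. They lie at chr8:126945922-126946071 (minus strand), chr14:32201892-32202041 (minus), chr16:29579184-29579333 (plus) and chr3:32529332-32529481 (plus).
Tomm20, NRF1 core: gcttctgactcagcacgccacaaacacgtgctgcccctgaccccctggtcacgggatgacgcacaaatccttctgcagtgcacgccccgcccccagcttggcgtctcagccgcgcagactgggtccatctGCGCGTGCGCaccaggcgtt
Timm23, GABPA core on the opposite strand: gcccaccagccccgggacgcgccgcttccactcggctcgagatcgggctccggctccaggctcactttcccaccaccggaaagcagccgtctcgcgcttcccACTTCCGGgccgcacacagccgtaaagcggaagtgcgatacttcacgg
Opa1, NRF1 core: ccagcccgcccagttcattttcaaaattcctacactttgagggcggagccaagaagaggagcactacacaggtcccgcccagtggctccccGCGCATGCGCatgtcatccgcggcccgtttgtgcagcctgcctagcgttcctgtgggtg
Mfn1, GABPA core: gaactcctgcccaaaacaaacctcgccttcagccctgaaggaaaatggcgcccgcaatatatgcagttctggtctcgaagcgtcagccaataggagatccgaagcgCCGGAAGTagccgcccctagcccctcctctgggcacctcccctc

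No gene of mitochondrial import, fusion or fission differed between MKO and WT soleus at an adjusted p under 0.05 by limma. Of the 33 members, 0 were called higher and 0 lower, where 0.0% of all 23152 genes were called in either direction, and the members' adjusted p was 0.9997. The local pooled error test named in the labels, re-implemented as an alternative, called 0 members and 0.108% of all genes. At an unadjusted p under 0.05, 0 members passed against 4.33% of all genes. The differences, MKO minus WT, ran from −0.17 for Mff to 0.19 for Tomm20 on the log2 scale. Positive differences were found in 21 members (63.6%, against 46.6% of all genes) and negative ones in 12. The median was 0.04 in the members and −0.01 over all genes. Positive differences numbered 15 of 33 with the median of a gene's probe sets in place of their mean, 16 of 33 without WT array 3 and 17 of 32 with bright probe sets only. In 4 members all MKO arrays were above, or all were below, every WT array (12.12%, against 9.25% of all genes), 3 of them higher (4.26% of all genes) and 1 lower (4.99%).

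The intervals of these differences were set against a 1.5-fold change. In 32 of 33 members the 95% interval of the difference lay within a 1.5-fold change in either direction (0.585 on the log2 scale), which held for 74.0% of all genes. The exception was Timm9, a dim gene with an interval of −0.36 to 0.73. Among genes above the median level, the share was 30 of 30 members and 86.7% of all such genes. These intervals are those of single genes and are not widened for the number of genes. They bound a mean over all probe sets of a gene, the dim ones included, which respond less to a change. With bright probe sets only, Tomm20l moved from 0.189 to 0.400, a value that rests on 1 of its 5 probe sets. The median difference over the members moved the other way, from 0.038 to 0.014 in the 32 members with a bright probe set. The median residual SD was 0.123 in the members and 0.191 over all genes.

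**Figure D1:**
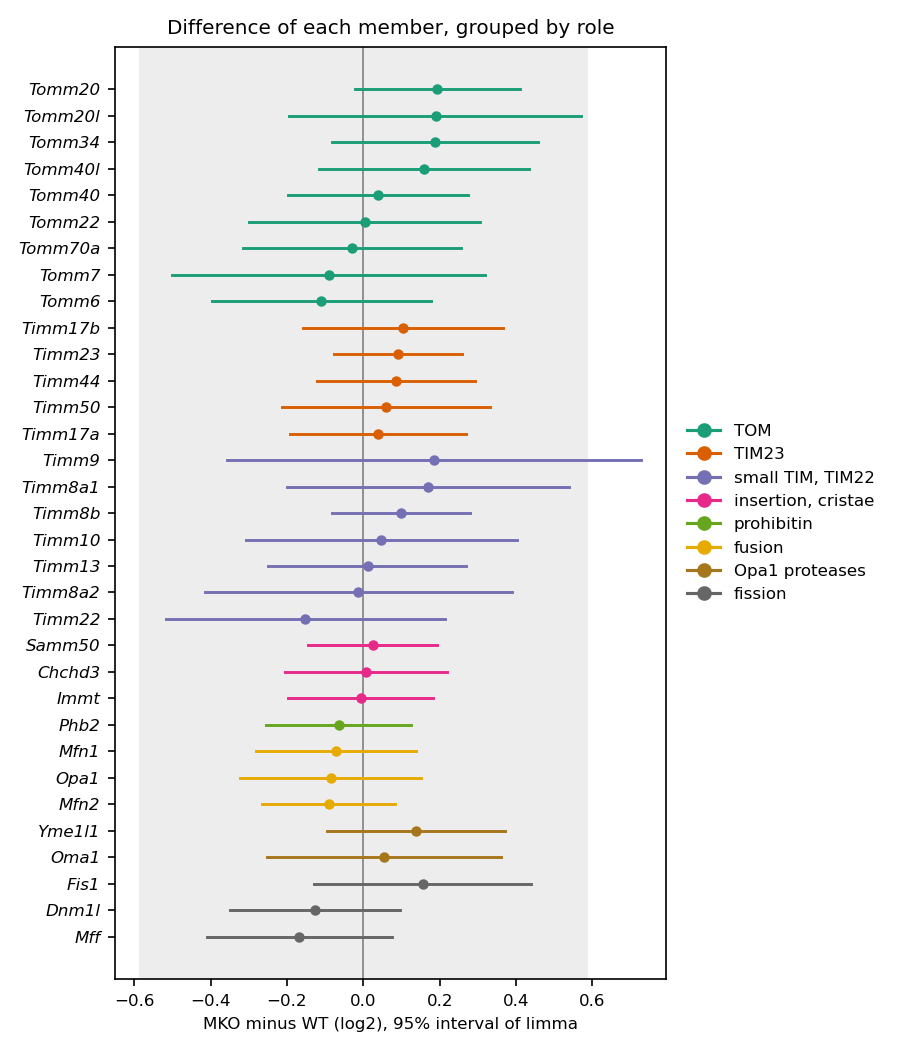
Difference of each of the 33 members (MKO minus WT, log2, x axis) with its 95% interval from limma, ordered within roles. The grey band marks a 1.5-fold change, and the interval of Timm9 alone passes beyond it. All intervals hold 0.

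The TOM complex is the entry gate of the outer membrane, and 6 of the 9 measured Tomm genes had a positive difference, with a median of 0.04. These 9 include the paralogs Tomm20l and Tomm40l and the cytosolic Tomm34, all with a positive difference. Of the others, Tomm20, Tomm40 and Tomm22 (0.004) had a positive difference, and Tomm70a, Tomm6 and Tomm7 a negative one. Tomm20, a receptor for precursors with a presequence, had the smallest p of all members. It stood at 7.768, 7.604 and 7.699 on the MKO arrays and at 7.434, 7.571 and 7.484 on the WT arrays. Every MKO array lay above every WT array, by as little as 0.03 between the nearest ones. The difference was 0.19 (SE 0.10, 95% interval −0.02 to 0.41, limma adjusted p = 0.9997), and all 5 probe sets of the gene pointed the same way, from 0.04 to 0.42. Tomm20l, a paralog of Tomm20, was dim, at 4.105, 4.264 and 3.852 in MKO and 4.041, 3.675 and 3.939 in WT, with arrays that overlapped and a difference of 0.19 (SE 0.18).

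Tomm34, a cytosolic cochaperone of precursors, stood at 6.011, 6.066 and 5.935 in MKO and at 5.928, 5.789 and 5.730 in WT. Its groups did not overlap, but the lowest MKO array and the highest WT array were 0.007 apart. The difference was 0.19 (SE 0.12), or 0.02 when the median of its probe sets was taken on each array. Of its 12 probe sets 8 were higher, and the median of their own differences was 0.28. The import channel itself is built of Tomm40, which stood at 7.574, 7.347 and 7.286 in MKO and at 7.329, 7.415 and 7.350 in WT. Its MKO arrays lay on both sides of the WT arrays, with a difference of 0.04 (SE 0.11). The paralog Tomm40l stood at 6.347, 6.457 and 6.462 in MKO and 6.362, 6.063 and 6.362 in WT, overlapping through MKO array 1, with a difference of 0.16 (SE 0.13). The receptors Tomm70a and Tomm22 differed by −0.03 (SE 0.13) and 0.00 (SE 0.14). The small subunits Tomm6 and Tomm7 differed by −0.11 (SE 0.13) and −0.09 (SE 0.19), and MKO array 3 of Tomm7 lay well below the other arrays, at 5.020 against 5.567 to 5.793.

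The TIM23 complex pulls presequence proteins into the matrix, and all 5 of its genes that met the rule had a small positive difference, from 0.04 to 0.10. In none were the groups apart. Timm23, the channel subunit, stood at 9.371, 9.318 and 9.363 in MKO and at 9.223, 9.345 and 9.216 in WT. Only WT array 2 reached into the MKO range. The difference was 0.09 (SE 0.08, 95% interval −0.08 to 0.26). Timm44, which anchors the import motor to the channel, stood at 8.008, 7.960 and 8.124 in MKO and 8.024, 7.936 and 7.876 in WT, a difference of 0.09 (SE 0.10) with overlapping arrays.

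Timm17a and Timm17b are alternative subunits of the same channel. Timm17a stood at 7.512, 7.557 and 7.643 in MKO and 7.410, 7.677 and 7.510 in WT, and differed by 0.04 (SE 0.11). Timm17b stood at 6.500, 6.632 and 6.418 in MKO and 6.293, 6.521 and 6.421 in WT, and differed by 0.10 (SE 0.12). Neither paralog's arrays separated the groups. Timm50, the receptor of this complex, differed by 0.06 (SE 0.13). Timm21, not a member, differed by 0.04 (SE 0.12).

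Small TIM proteins chaperone hydrophobic precursors across the space between the membranes, and Timm22 inserts carriers in the inner membrane. Of these 7 members, 5 had a positive difference. Timm8b stood at 8.541, 8.586 and 8.569 in MKO and at 8.513, 8.426 and 8.458 in WT. All MKO arrays were above all WT arrays by a narrow margin. The difference was 0.10 (SE 0.08), or 0.01 when the median of its probe sets was taken on each array. Its 3 probe sets were all higher, with a median difference of 0.08. Its relative Timm8a1, whose human ortholog is mutated in a deafness and dystonia syndrome, stood at 4.841, 4.443 and 4.917 in MKO and at 4.477, 4.474 and 4.741 in WT. MKO array 2 fell below all WT arrays there. The difference was 0.17 (SE 0.17), or 0.02 when the median of its probe sets was taken on each array. Of its 5 probe sets 4 were higher, with a median difference of 0.13. Timm22 stood at 4.773, 4.713 and 4.686 in MKO and at 4.848, 5.185 and 4.596 in WT, where WT array 2 was the highest, with a difference of −0.15 (SE 0.17). The other small TIM genes Timm9, Timm10, Timm13 and Timm8a2 differed by 0.19 (SE 0.25), 0.05 (SE 0.16), 0.01 (SE 0.12) and −0.01 (SE 0.19). Timm9, Timm8a1, Timm8a2, Timm22 and Tomm20l had levels of 3.620 to 5.185, near or below the median row of the table (4.84), where RMA values respond less to a change.

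Genes of outer membrane insertion and of cristae, the folds of the inner membrane, differed little, by −0.007 to 0.025. Samm50, the core of the machinery that inserts barrel proteins in the outer membrane, stood at 9.089, 9.063 and 9.073 in MKO and at 9.051, 9.112 and 8.989 in WT. The MKO arrays lay inside the WT range, and the difference was 0.02 (SE 0.08, 95% interval −0.14 to 0.19). Immt, the mitofilin that shapes cristae junctions, stood at 8.538, 8.623 and 8.628 in MKO and 8.630, 8.679 and 8.502 in WT, a difference of −0.01 (SE 0.09). Its partner Chchd3 stood at 8.080, 7.914 and 8.070 in MKO and 8.004, 8.115 and 7.927 in WT, a difference of 0.01 (SE 0.10). In both genes the arrays of the groups were mixed. Phb2, which forms ring-shaped scaffolds in the inner membrane, stood at 8.150, 8.126 and 8.065 in MKO and at 8.164, 8.195 and 8.178 in WT. It was the 1 member whose MKO arrays all lay below the WT arrays, by 0.014 at the nearest, and the difference was −0.07 (SE 0.09).

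**Figure D2:**
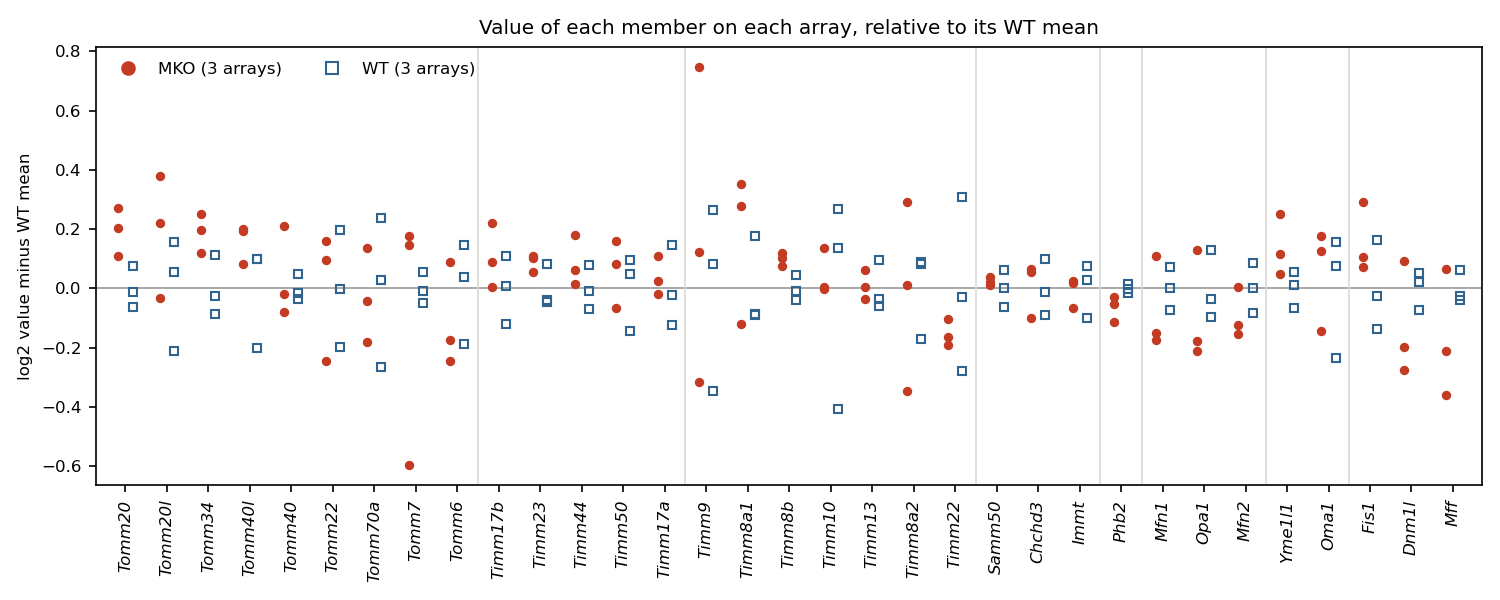
Log2 value of each member on each array minus the mean of its 3 WT arrays, with MKO arrays as filled circles on the left of each gene and WT arrays as open squares on the right. Grey lines part the roles in the order TOM, TIM23, small TIM and TIM22, insertion and cristae, prohibitin, fusion, Opa1 proteases and fission. The groups are apart in Tomm20, Tomm34, Timm8b and Phb2.

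The 3 fusion genes all had small negative differences, from −0.09 to −0.07. Mfn1 and Mfn2 encode the mitofusins that join outer membranes. Mfn1 stood at 8.666, 8.691 and 8.951 in MKO and at 8.843, 8.911 and 8.767 in WT. MKO arrays 1 and 2 were below every WT array and MKO array 3 above every one, and the difference was −0.07 (SE 0.10, 95% interval −0.28 to 0.14). Mfn2, which also tethers mitochondria to the endoplasmic reticulum, stood at 9.580, 9.422 and 9.453 in MKO and at 9.491, 9.575 and 9.660 in WT. There it was MKO array 1 that reached the WT range, and the difference was −0.09 (SE 0.08). Opa1, the GTPase that fuses inner membranes, stood at 8.263, 8.229 and 8.567 in MKO and at 8.404, 8.570 and 8.342 in WT. MKO arrays 1 and 2 were again the lowest, with MKO array 3 just under the highest WT array and a difference of −0.09 (SE 0.11).

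Proteases cut Opa1 into short forms. Yme1l1 stood at 7.183, 7.318 and 7.115 in MKO and at 7.0, 7.123 and 7.079 in WT, where MKO array 3 was level with WT array 2, a difference of 0.14 (SE 0.11). Oma1, which is activated by stress, stood at 6.193, 6.514 and 6.462 in MKO and 6.494, 6.413 and 6.100 in WT, a difference of 0.05 (SE 0.14) with wide overlap.

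The fission genes did not share a sign. Dnm1l encodes Drp1, the GTPase that constricts mitochondria, and stood at 8.607, 8.684 and 8.975 in MKO and at 8.903, 8.934 and 8.809 in WT. Its difference was −0.13 (SE 0.10, 95% interval −0.35 to 0.10). Mff, the main receptor of Drp1 on the outer membrane, stood at 7.948, 8.097 and 8.372 in MKO and at 8.370, 8.282 and 8.269 in WT, a difference of −0.17 (SE 0.11, 95% interval −0.41 to 0.07). In both genes MKO arrays 1 and 2 were below every WT array and MKO array 3 was the highest of all 6. Fis1, an outer membrane protein also linked to fission, stood at 6.103, 6.324 and 6.137 in MKO and at 6.005, 5.895 and 6.197 in WT. Only WT array 3 overlapped the MKO arrays, and the difference was 0.16 (SE 0.13).

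Mfn1, Opa1, Dnm1l and Mff had MKO arrays 1 and 2 below every WT array and MKO array 3 not, which was noticed after their values were seen. This occurred in 7.8% of all genes and in these 4 of 33 members. The reverse, MKO arrays 1 and 2 above every WT array and MKO array 3 not, occurred in 5.69% of all genes. It was seen in 3 members, Tomm20l, Tomm7 and Yme1l1. With each array left out in turn, the difference ran from −0.162 to −0.019 for Mfn1, −0.193 to −0.020 for Opa1, −0.236 to −0.052 for Dnm1l and −0.285 to −0.073 for Mff, and no adjusted p by limma was under 0.05. The most negative values were those without MKO array 3, as the way the 4 genes were singled out makes them. Endothelial markers stood at −0.393, −0.117 and 0.016 on MKO arrays 1, 2 and 3 relative to the WT mean, against −0.186 to 0.186 in WT. Markers of fast fibres, of muscle fibres and of tendon cells were likewise lowest on MKO array 1 and highest on MKO array 3. Other marker lists had another order, among them those of fibroblasts and macrophages. Slow fibre markers stood at 0.030, −0.169 and −0.035, adipocyte markers at −0.078, 0.618 and −0.507 and smooth muscle markers at −0.061, 0.168 and −0.014. Genes of mitochondrial mass stood at −0.045, 0.008 and 0.10 on the same arrays, against −0.061 to 0.044 in WT. The further mitochondrial lists described below were also lowest on MKO array 1 and highest on MKO array 3. Import genes stood at −0.146, −0.013 and 0.056, and cristae genes at −0.087, −0.086 and 0.077. Genes of shape and movement stood at −0.047, −0.004 and 0.067, and proteases, chaperones and scaffolds at −0.121, 0.011 and 0.094. The part of these marker levels in the order of the arrays was not tested.

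**Figure D3:**
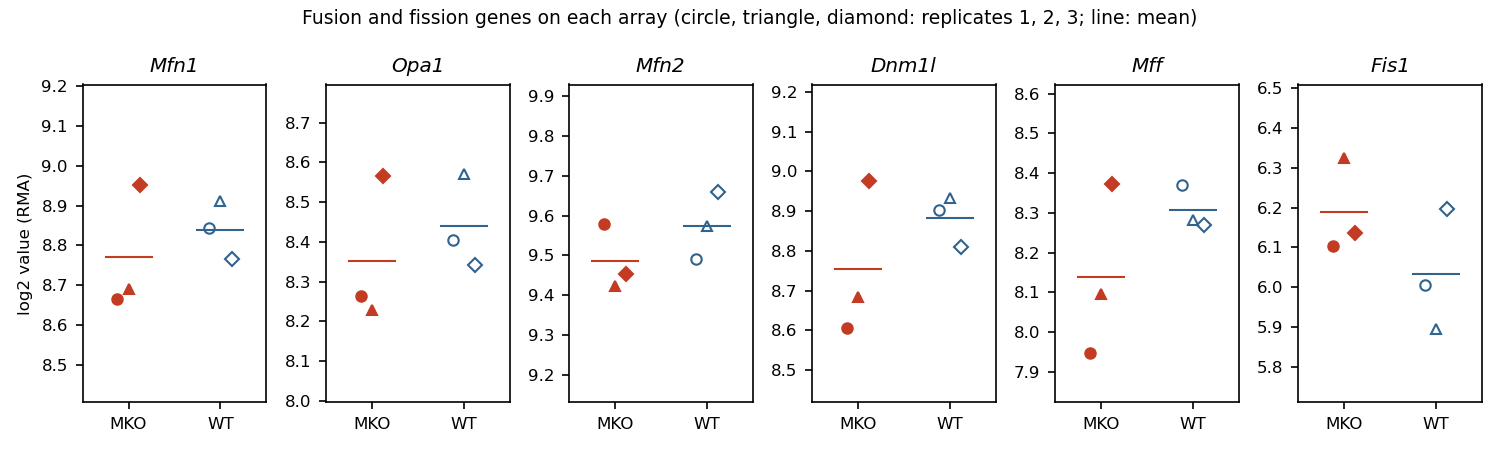
Log2 RMA value of 6 fusion and fission genes in MKO (filled, left) and WT (open, right), with circles, triangles and diamonds for replicates 1, 2 and 3 and lines for group means. Each panel spans 0.8 log2 units. In Mfn1, Opa1, Dnm1l and Mff the MKO diamond lies at the height of the highest WT array or above it, and the other MKO arrays lie below all WT arrays.

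Single probe sets, which rest on few probes, gave no call either. Of the 377 member probe sets 0 passed an adjusted p of 0.05 by limma, as did 0.0% of all 269751 rows. At an unadjusted p under 0.05 the count was 10 of 377, or 2.65%, against 5.0% of all rows, with 5 higher and 5 lower. The arrays of the groups were apart in 46 of 377 (12.2%), against 9.86% of all rows. The smallest p belonged to probe set 17326380 of Tomm70a, at 10.783 ± 0.055 in MKO and 10.447 ± 0.098 in WT (SD, n = 3). The difference was 0.34 (SE 0.09, limma adjusted p = 0.9766). The other 14 probe sets of Tomm70a left the gene's mean at −0.03.

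Probe sets of 1 gene often disagreed. The next in order of p were 17465676 of Chchd3 (1.43, SE 0.47), 17367596 of Yme1l1 (1.07, SE 0.38), 17214840 of Mff (−0.48, SE 0.17) and 17324593 of Opa1 (−0.40, SE 0.14). Of these the Chchd3 probe set was dim, at 3.743 ± 0.655 in MKO and 2.310 ± 0.400 in WT (SD, n = 3), and 9 of the gene's 18 probe sets were lower. Mff had 8 of 12 probe sets lower, Opa1 15 of 25, Mfn2 15 of 22 and Mfn1 11 of 22. Positive differences made up 54.1% of the members' probe sets, against 48.7% of all rows. By role the share was 64.8% for the Tomm genes (Tomm34 and the paralogs included), 66.1% for TIM23 and 54.1% for small TIM and TIM22. It was 48.1% for insertion and cristae, 42.9% for Phb2, 40.6% for fusion, 63.9% for the Opa1 proteases and 45.2% for fission. Probe sets of a gene share their arrays and are not independent.

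**Figure D4:**
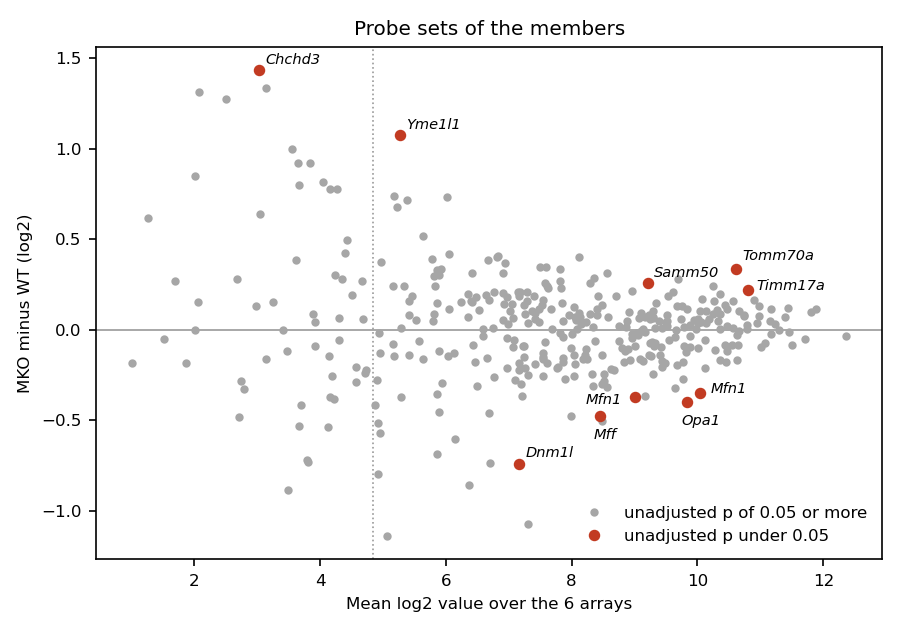
Difference (MKO minus WT, log2, y axis) of the 377 member probe sets against their mean log2 value over the 6 arrays, with the 10 at an unadjusted p under 0.05 in red and named by gene. The dotted line is the median row of the table (4.84), and the differences spread more widely at low values.

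Further genes of the same pathways gave no call either. The counts of signs below stand against 46.6% positive differences over all genes. Of 23 further import genes, which hold the import motor, the sorting machinery and the presequence proteases, 7 had a positive difference and 16 a negative one, with a median of −0.02 and 0 past an unadjusted p of 0.05. Mtx1, a metaxin of outer membrane insertion, differed by −0.18 (SE 0.15), Immp1l, a peptidase of the inner membrane, by −0.14 (SE 0.12) and Dnajc15, a J protein of the import motor, by 0.13 (SE 0.12). Of 9 further cristae genes 8 had a negative difference, with a median of −0.04 and 0 past that threshold, led by Atp5k, a dimer subunit of ATP synthase (−0.13, SE 0.11). Among 22 further genes of mitochondrial shape and movement 13 had a positive difference, with a median of 0.01 and 0 past that threshold. Mtfp1, an inner membrane protein of fission, stood at 7.303 in MKO and 7.124 in WT with all MKO arrays above the WT arrays (0.18, SE 0.10).

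Of 12 proteases, chaperones and scaffolds of the mitochondrial interior 5 had a positive difference, with a median of −0.02, and 2 passed an unadjusted p of 0.05, both higher. Clpx, the unfolding subunit of a matrix protease, differed by 0.22 (SE 0.10), and the chaperonin Hspd1 by 0.20 (SE 0.09). Of 13 genes used as a gauge of mitochondrial mass 7 had a positive difference, with a median of 0.01, and 1, Uqcrc2 of respiratory complex III, passed an unadjusted p of 0.05 (0.19, SE 0.08). No gene of these 5 lists had an adjusted p under 0.05 by limma.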

How the data were processed

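The deposited log2 values are the authors' RMA output from Affymetrix Expression Console, per the submitters' processing notes. The software version, genome build and annotation release were not given in the sources used here, and although the design text speaks of gene level, the table held 269751 rows with several per gene. Genes were named through the platform annotation. Of the rows, 233753 had 1 symbol, 5106 several and 30892 none, and the first kind was used. A gene's value was the mean of its rows, with no filter on low values.

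MKO minus WT was fitted over all 23152 genes, and over all rows, with limma 3.58.1 in R 4.3.3 (variance trend, two-sided), with Benjamini-Hochberg adjustment over everything tested. Per the labels' design text, the authors used an LPE (local pooled error) test, re-implemented here as an alternative. Replicates were separate animals per the labels. With 3 against 3 mice an exact permutation test cannot go below 0.1, and the number of arrays limits the precision. Data were simulated for this comparison over 23152 genes, with independent normal noise. Of the genes changed, limma called 3 of 50 changed by 0.5 (log2), 26 of 50 changed by 1 and 50 of 50 changed by 2. It also called 6 of 22952 unchanged genes. The changed genes were drawn from all genes and changed in 1 run, so these counts do not give the power for the members. Same-numbered arrays did not deviate together (r = −0.088, 0.091 and −0.236), so the numbers were not used as pairs.

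Values on every array were given for up to 3 members per role with the smallest p and for paralog pairs, and up to 3 genes per further list. Of 80 further list entries, 70 matched by symbol, 9 by synonym and 1 matched none. The members and lists were chosen with earlier results of these data known. Alternatives were other moderation, array weights, a replicate block, other scaling, level filters, other summaries of probe sets and each array left out. Tables and figures were made with Python 3.11.15.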

Additional observations from a re-analysis of the deposited data

How the results depend on the processing

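No member and no member probe set passed the adjusted threshold under any alternative run, the replicate block included (0 members and 0 probe sets with limma). The median difference over the members, 0.038, was also 0.038 with the replicate block, lay between −0.008 (median of probe sets) and 0.073 (quantile normalization) over the alternatives that kept all 6 arrays, and ran from −0.006 to 0.080 with each array left out. At an unadjusted p under 0.05 (limma) the members were Timm23 and Tomm20 after quantile normalization and Fis1 and Tomm20 with the median of probe sets. With bright probe sets only the member was Tomm20l, through its 1 bright probe set. Without MKO replicate 3 the members were Dnm1l and Mff, which were high on that array among the MKO arrays. The median of probe sets, taken on each array, moved Tomm20 to 0.335 and Fis1 to 0.392, and Tomm34 to 0.020, Timm8a1 to 0.021 and Timm8b to 0.013.

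Of 383 values of the 24 members given by array, 362 kept their direction, and 15 of those members kept it throughout. With the median of probe sets Tomm40l stood at −0.008, Timm23 at −0.042 and Chchd3 at −0.114. With bright probe sets only Chchd3 stood at −0.002 and Timm17a at −0.002, with array weights Chchd3 at −0.031, and by the local pooled error test Tomm40 at −0.003. Immt stood at 0.032 after quantile normalization and 0.017 after median centring. With each array left out, the signs of 7 members turned: Timm22 (−0.292 to 0.003), Samm50 (−0.006 to 0.055), Immt (−0.058 to 0.030), Chchd3 (−0.038 to 0.059), Oma1 (−0.064 to 0.152), Timm17a (−0.023 to 0.111) and Tomm40 (−0.048 to 0.096). The causes were not tested. Signal limits the dim members most, and Timm8a2 had no bright probe set.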
